A study of Homo sapiens with 7 samples.

Results

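The 43 genes described here encode the ligands, receptors, antagonists and targets of NODAL, BMP and TGF-beta signalling. They were chosen by symbol from a fixed list and read in all 7 libraries of the study. All 43 were found among 23262 genes with values. By role they comprise 7 ligands of the NODAL and activin branch and its relatives, 7 BMP ligands, 3 TGF-beta ligands, 9 antagonists and modulators, 11 receptors and co-receptors, and 6 targets (the ID genes, SMAD6 and SMAD7).

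Ligands of this family bind pairs of type I and type II serine/threonine kinase receptors, which phosphorylate SMAD proteins. NODAL, activins and TGF-beta act mainly through SMAD2 and SMAD3, and BMPs through SMAD1, SMAD5 and SMAD9. NODAL additionally needs the co-receptor TDGF1 (CRIPTO) and is limited by its own induced antagonists LEFTY1 and LEFTY2. In human embryonic stem cells activin and NODAL signalling maintains pluripotency, and in the embryo NODAL and BMP signals induce mesoderm, including the precursors of the heart.

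The libraries come from human embryonic stem cells (hESC) of 1 line, labelled H3, that carries eGFP at NKX2-5, an early heart transcription factor gene, and mCherry under alpha-MHC, the cardiac myosin encoded by MYH6. They are undifferentiated hESC on day 0, and cells differentiated toward heart muscle and collected by flow cytometry on day 3 (CD13+/ROR2+ and CD13-/ROR2-), on day 7 (CD13+/ROR2+/NKX2-5+ and CD13+/ROR2+/NKX2-5-) and on day 14 (CD13+/ROR2+/NKX2-5+ with or without alpha-MHC, here aMHC+ and aMHC-). The culture conditions and any factors added to drive differentiation, such as BMP or activin, are not part of the labels used here, nor is the day on which the older fractions were gated for CD13 and ROR2. Nothing names separate cultures. Each group has 1 library, so no difference has a replicate check and no test or error is given.

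Levels are in FPKM, which counts fragments relative to transcript length and library size and so may be compared between genes. Comparisons between libraries used differences of log2(FPKM + 1). A gene was called when this difference was at least 2 in size, that is 4-fold, and the larger of its levels was 5 FPKM or more. Folds are FPKM divided by FPKM, with nothing added. Reads were single and 50 bases long according to the labels. Relative depth, estimated from the spacing of low FPKM, was 0.601 for day 7 NKX2-5+ and 2.64 for day 3 CD13+/ROR2+ when hESC is set to 1. Libraries also differed in overall scale. A median-ratio scaling gives each library a log2 factor from 7780 commonly expressed genes. The factors differed by -0.43 for day 7 NKX2-5+ over NKX2-5- and by -0.69 for day 7 NKX2-5+ over day 3 CD13+/ROR2+. For day 14 aMHC+ over day 7 NKX2-5+ the difference was 0.61, and for the day 14 pair -0.21. The scaling subtracts this difference, so log2 ratios of FPKM move the opposite way, upward where it is negative. Calls of members that change under it are pointed out, and levels in single libraries are unscaled. Summed over 5 pluripotency markers, FPKM was 456 in hESC, 86.0 in day 3 CD13+/ROR2+ and 391 in CD13-/ROR2-, and between 4.67 and 21.5 in the later libraries. Summed over 6 cardiomyocyte markers it was 1922 and 244 in the day 7 pair and 2299 and 799 in the day 14 pair. The CD13-/ROR2- library is labelled endoderm progenitor, but SOX17 and FOXA2, endoderm genes picked for this check after their values were seen, stood at 2.71 and 0.0874 FPKM there, against 17.8 and 3.88 in CD13+/ROR2+, which is labelled mesoderm progenitor. Libraries are therefore called by their sort. Within a pair the positive fraction is given first.

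Of the 43 genes, 32 reached 5 FPKM in at least 1 library and 10 were listed at 0 in at least 1. The difference between the highest and the lowest library had a median of 2.76 on the log2(FPKM + 1) scale, against 1.70 over the 7716 genes that reached 5 FPKM in a library and 0.84 over all 23262. BMP ligands spanned most (median 4.80) and receptors and co-receptors least (median 1.62). The libraries with the most members at their highest level were day 14 aMHC-, with 15 (34.9% of the members, against 30.3% of the 7716 genes), and day 3 CD13+/ROR2+, with 11 (25.6% against 14.3%). The member shares count all 43 genes, while the 7716 genes are only those that reached 5 FPKM, so the sets are not filtered alike. The most abundant member was TDGF1 in hESC and in day 3 CD13+/ROR2+, ID1 in day 3 CD13-/ROR2- and in both day 14 libraries, BMP5 in day 7 NKX2-5+ and BAMBI in day 7 NKX2-5-.

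**Figure D1:**
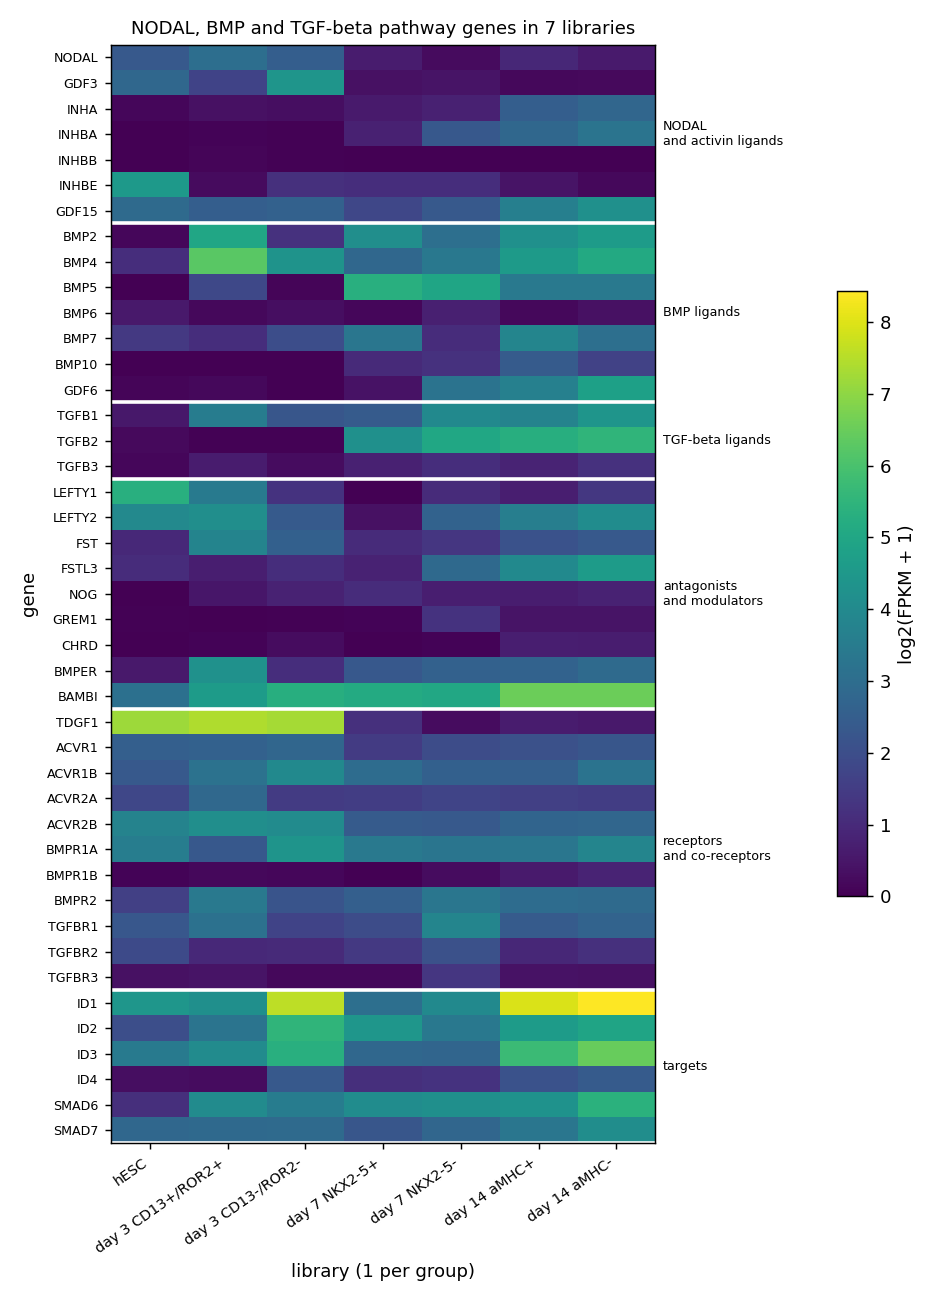
Level of each of the 43 genes, as log2(FPKM + 1) by colour, in each of the 7 libraries (columns, 1 per group), ordered by role (rows). TDGF1 is bright in the 3 libraries of days 0 and 3 and dark in the 4 later ones, TGFB2 shows the reverse, and ID1 is brightest in day 3 CD13-/ROR2- and on day 14.

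NODAL and its co-receptor gene TDGF1 were present in hESC and on day 3 and low afterwards. NODAL, the ligand that starts mesendoderm formation, stood at 4.06 FPKM in hESC, 7.32 and 4.79 in the day 3 pair, 0.557 and 0.191 in the day 7 pair, and 0.933 and 0.533 in the day 14 pair. TDGF1, its co-receptor, stood at 145 FPKM in hESC, 171 and 157 on day 3, 1.25 and 0.202 on day 7, and 0.563 and 0.505 on day 14. For both genes the 3 early libraries lay above the 4 later ones with no overlap. The share of all genes that separate these libraries was not counted, for these or for genes named below. On day 3 the fractions sorted by CD13 and ROR2 differed 1.09-fold in TDGF1. In bulk RNA, fewer cells that express a gene and less RNA per cell cannot be told apart.

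GDF3, a NODAL-related ligand of pluripotent cells, followed another order. Its level was 6.04 FPKM in hESC, 2.24 and 20.1 in the day 3 pair, and between 0.126 and 0.351 in the 4 later libraries. Its highest level was thus in day 3 CD13-/ROR2-, 8.94-fold that in CD13+/ROR2+. The pluripotency markers were also higher in that fraction when summed (391 against 86.0 FPKM), with DPPA4 the largest part (272 against 39.8). LIN28B went the other way, at 16.8 against 26.0 FPKM. The part of these markers in the GDF3 difference was not tested.

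The antagonists LEFTY1 and LEFTY2 are TGF-beta family proteins that block NODAL and its receptors. LEFTY1 stood at 39.1 FPKM in hESC, 9.92 and 1.34 in the day 3 pair, 0 and 1.04 in the day 7 pair, and 0.627 and 1.56 in the day 14 pair. LEFTY2 stood at 14.5 FPKM in hESC, 16.9 and 4.22 on day 3, 0.307 and 5.27 on day 7, and 11.2 and 16.1 on day 14. LEFTY1 was highest in hESC and low from day 7 on, whereas LEFTY2 was lowest in day 7 NKX2-5+ and on day 14 stood near its hESC level again. The quotient LEFTY1 over LEFTY2 was 2.69 in hESC, 0.587 and 0.318 on day 3, 0.198 in day 7 NKX2-5-, and 0.0559 and 0.0967 on day 14. These 2 genes are close paralogs. Of all 50-base windows in LEFTY1 transcripts 26.8% also occur in LEFTY2 transcripts, and 21.5% the other way, so reads could have been split between them. LEFTY1 shares more, 45.3% of its windows, with the annotated transcript AL117348.2, and 46.8% in all. NODAL itself shares 39.7% of its windows with another annotated transcript, AC022532.1, and TDGF1 39.9% with its pseudogene TDGF1P3, which the table lists at 21.6 FPKM in hESC and at 24.2 and 26.0 on day 3.

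**Figure D2:**
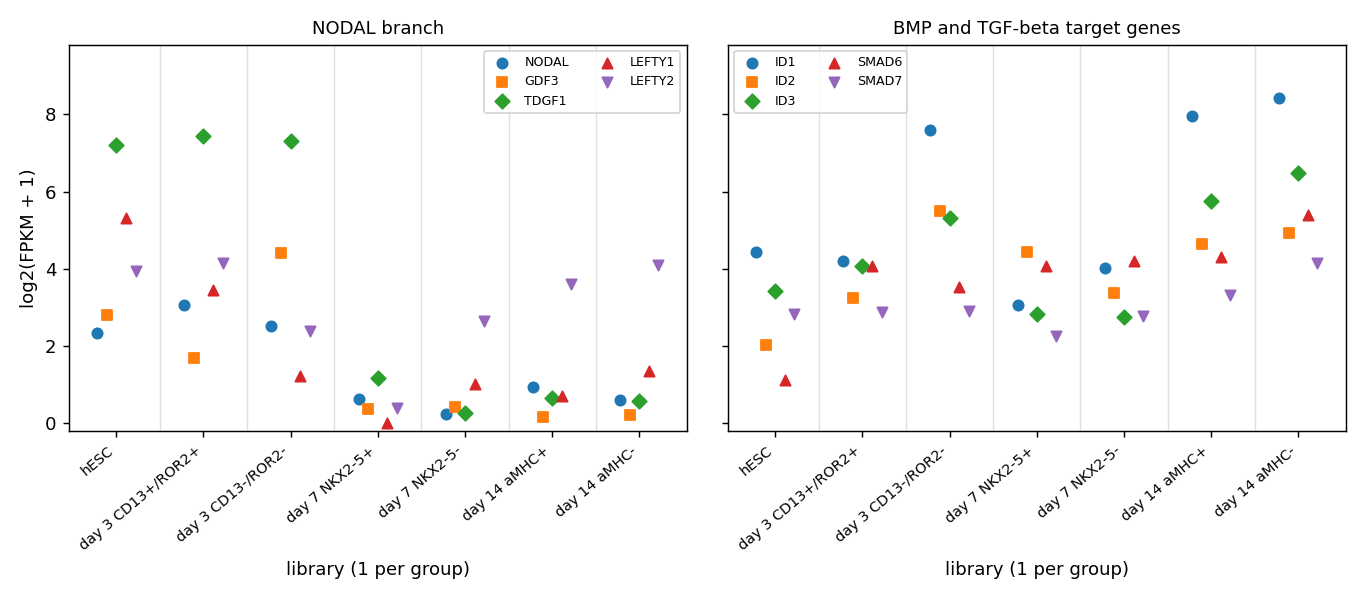
Level in each of the 7 libraries (x axis, 1 per group) as log2(FPKM + 1) (y axis) for 5 genes of the NODAL branch (left) and 5 target genes (right), 1 symbol per gene. On the left TDGF1 drops from between 145 and 171 FPKM in the early libraries to at most 1.25 later, and LEFTY2 returns on day 14; on the right ID1 is at 192 FPKM in day 3 CD13-/ROR2- and at 247 and 343 on day 14.

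Of the 4 inhibin and activin subunit genes, INHBA and INHA had their highest levels on day 14, INHBE was highest in hESC and INHBB stayed near 0. INHBA, which encodes the subunit of activin A, was listed at 0 in hESC and stood at 0.0602 and 0.0299 FPKM on day 3, 0.72 and 4.03 on day 7, and 6.08 and 8.39 on day 14. INHA, the inhibin alpha subunit, was at 0.1 FPKM in hESC, 0.298 and 0.236 on day 3, 0.536 and 0.694 on day 7, and 4.73 and 5.95 on day 14. INHBB never exceeded 0.0925 FPKM. INHBE, a subunit gene best known from liver, stood at 22.8 FPKM in hESC, 0.183 and 1.26 on day 3, 1.14 and 1.14 on day 7, and 0.360 and 0.141 on day 14, so that hESC lay apart from the other 6 libraries. GDF15, a stress-induced distant member of the family, was at 6.47 FPKM in hESC, 4.79 and 5.11 on day 3, 2.51 and 4.14 on day 7, and 11.4 and 17.6 on day 14.

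BMP ligand genes were low in hESC, at most 1.64 FPKM, and those other than BMP6 came up at different times. BMP2 and BMP4 are the ligands most tied to early mesoderm and heart induction. BMP2 stood at 0.106 FPKM in hESC, 30.8 and 1.30 in the day 3 pair, 17.1 and 7.51 on day 7, and 17.6 and 23.7 on day 14. BMP4 stood at 1.17 FPKM in hESC, 77.1 and 18.98 on day 3, 6.09 and 9.40 on day 7, and 23.4 and 34.1 on day 14. Both were highest in day 3 CD13+/ROR2+. BMP2 separated the day 3 fractions 23.7-fold. BMP4 did so 4.06-fold, with a log2 ratio of 1.97 just short of the size rule.

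BMP5, a ligand of early heart and lateral mesoderm, took over on day 7. It was listed at 0 in hESC and stood at 2.54 and 0.0739 FPKM on day 3, 39.3 and 30.2 on day 7, and 9.58 and 9.56 on day 14. BMP7, of the same subgroup, stood at 1.64 FPKM in hESC, 1.16 and 2.95 on day 3, 8.81 and 1.09 on day 7, and 13.2 and 7.39 on day 14. It was higher in the positive fraction of both late pairs. GDF6, a BMP family ligand of skeletal joints and eye, went the other way, with at most 0.318 FPKM in hESC, on day 3 and in day 7 NKX2-5+, then 8.20 in day 7 NKX2-5-, 11.9 in day 14 aMHC+ and 26.9 in aMHC-. BMP10, a ligand made in heart muscle, was at most 0.0205 FPKM through day 3, 0.995 and 1.28 on day 7, and 4.36 and 2.19 on day 14. BMP6 stayed between 0.105 and 0.668 FPKM.

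TGFB2, which drives cushion formation in the heart, was the ligand gene with the widest span. It stood at 0.162 FPKM in hESC, 0.0268 and 0.0445 on day 3, 17.9 and 31.8 on day 7, and 38.3 and 44.9 on day 14. All 4 libraries of days 7 and 14 lay above the 3 earlier ones with no overlap, again without a count over all genes. Of its windows 26.2% also occur in another transcript, TGFB2-OT1. TGFB1, the general TGF-beta ligand, stood at 0.461 FPKM in hESC, 10.6 and 3.75 on day 3, 4.31 and 14.9 on day 7, and 12.7 and 20.03 on day 14, and TGFB3 stayed at or below 1.28.

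**Figure D3:**
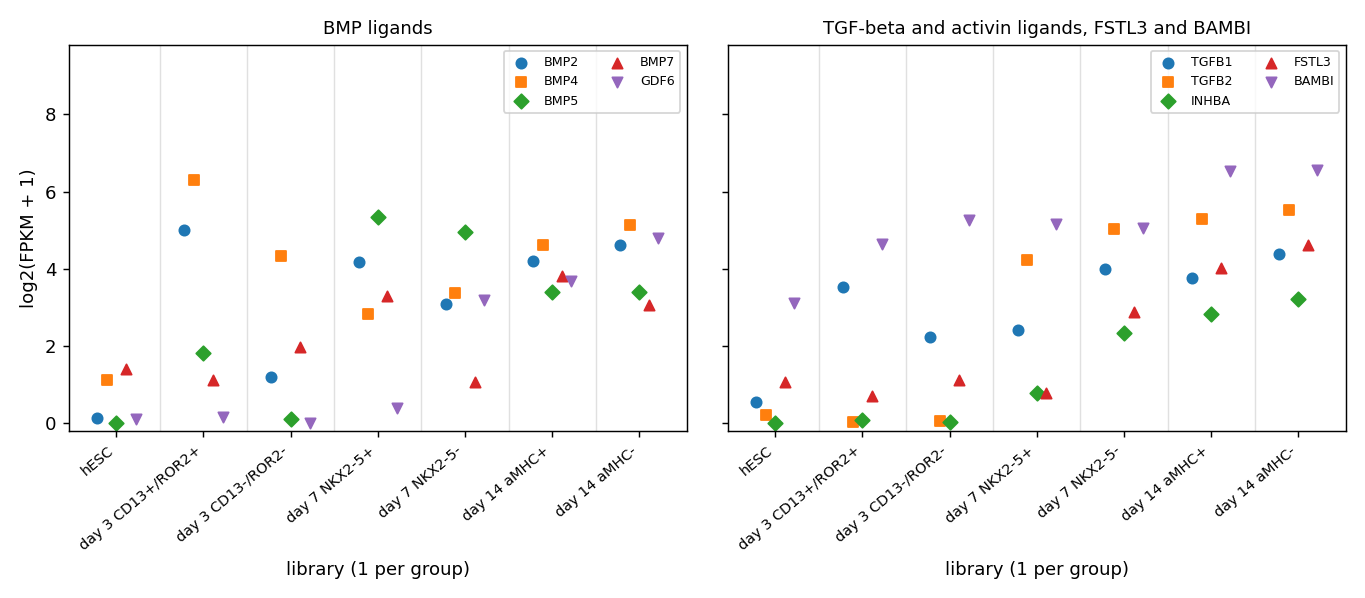
Level in each of the 7 libraries (x axis, 1 per group) as log2(FPKM + 1) (y axis) for 5 BMP ligand genes (left) and for TGFB1, TGFB2, INHBA, FSTL3 and BAMBI (right), 1 symbol per gene. BMP4 leads on day 3 and BMP5 on day 7, and TGFB2 rises from below 0.2 FPKM on days 0 and 3 to between 17.9 and 44.9 later.

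The extracellular antagonists split by time. FST (follistatin, which binds activins) stood at 0.951 FPKM in hESC, 13.0 and 4.99 on day 3, 1.03 and 1.52 on day 7, and 3.41 and 4.09 on day 14. FSTL3, a follistatin relative, was at 1.10 FPKM in hESC, 0.628 and 1.17 on day 3, 0.741 and 6.36 on day 7, and 15.2 and 23.7 on day 14. FST was thus highest where FSTL3 was lowest, in day 3 CD13+/ROR2+. BMPER, a secreted BMP-binding regulator, also peaked there, at 18.04 FPKM against 0.497 in hESC, 1.14 in CD13-/ROR2-, 3.98 and 5.10 on day 7, and 5.24 and 6.57 on day 14. The classic BMP antagonists of the embryo were low throughout, with NOG (noggin) at most 1.09, CHRD (chordin) at most 0.625 and GREM1 (gremlin) at most 1.36 FPKM. BAMBI, a membrane pseudoreceptor without a kinase and itself a BMP target, stood at 7.65 FPKM in hESC, 23.8 and 37.7 on day 3, 34.8 and 32.2 on day 7, and 91.2 and 92.4 on day 14. Neither sort on day 7 or 14 split BAMBI.

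Receptor genes varied less. Apart from TDGF1, the highest receptor level was 19.7 FPKM, for the type I BMP receptor gene BMPR1A in day 3 CD13-/ROR2-. BMPR1A was at 11.0 FPKM in hESC, fell short of that in CD13+/ROR2+ with 4.03, and was at 9.63 and 8.69 on day 7 and at 8.89 and 13.4 on day 14. It shares 7.15% of its windows with a pseudogene, BMPR1AP1. BMPR2, the type II receptor of BMPs, was opposite on day 3, at 9.52 against 3.60 FPKM, with 2.03 in hESC, 4.84 and 9.00 on day 7, and 6.83 and 6.47 on day 14.

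The receptor genes with ACVR symbols among the 43 were at 1.76 FPKM or more in all libraries. ACVR1C, a further type I receptor gene (ALK7) outside the 43 and named after its values were seen, was at most 0.258. ACVR2B, a type II receptor, stood at 12.5 FPKM in hESC, 16.7 and 15.9 on day 3, 4.41 and 4.15 on day 7, and 5.50 and 5.80 on day 14, with the early libraries above the later ones. ACVR1B, a type I receptor also known as ALK4, was at 4.16 FPKM in hESC, 8.09 and 14.9 on day 3, 6.87 and 5.02 on day 7, and 4.85 and 8.34 on day 14. ACVR2A, a type II receptor, was at 2.51 FPKM in hESC, 6.14 and 1.76 on day 3, 1.92 and 2.35 on day 7, and 2.01 and 1.88 on day 14, so day 3 CD13+/ROR2+ stood above the rest. ACVR1, a type I receptor (ALK2), was at 4.81 FPKM in hESC, 5.20 and 5.89 on day 3, 1.79 and 2.86 on day 7, and 3.22 and 3.74 on day 14. Of the TGF-beta receptors, TGFBR1 was highest in day 7 NKX2-5-, at 13.3 FPKM against 2.92 in NKX2-5+ (3.86 in hESC, 7.82 and 2.26 on day 3, 4.38 and 5.40 on day 14), as were TGFBR2 (3.24 against 1.66) and the co-receptor TGFBR3 (1.54 against 0.142). None of these 3 passed the size rule in that pair. BMPR1B was at most 0.799 FPKM.

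The ID genes are direct BMP targets that encode inhibitors of basic helix-loop-helix factors, and ID1 was the most abundant of the 6 target genes in 5 of 7 libraries. ID1 stood at 20.7 FPKM in hESC, 17.4 and 192 in the day 3 pair, 7.40 and 15.2 on day 7, and 247 and 343 on day 14. ID3 stood at 9.77 FPKM in hESC, 15.8 and 39.1 on day 3, 6.06 and 5.68 on day 7, and 52.8 and 88.3 on day 14. In unscaled FPKM both were lowest on day 7 and highest on day 14, with a separate high level in day 3 CD13-/ROR2-. For ID1, day 7 NKX2-5- (15.2) and day 3 CD13+/ROR2+ (17.4) lay so close that the scale difference between these libraries can change their order. ID2 stood at 3.07 FPKM in hESC, 8.44 and 44.3 on day 3, 20.5 and 9.39 on day 7, and 23.8 and 29.2 on day 14. ID2 was also higher in day 3 CD13-/ROR2-, but in day 7 NKX2-5+ it stood above ID1 and ID3. ID4 was low, between 0.209 and 4.41 FPKM, with its highest early level (4.08) also in day 3 CD13-/ROR2-. On day 3 BMP2 was called higher in CD13+/ROR2+ and ID1 and ID2 in CD13-/ROR2-. ID3 (2.47-fold higher in CD13-/ROR2-) and ID4 were not called, the latter with a log2 ratio of -2.07 but under 5 FPKM. The ligand gene BMP7 was 2.54-fold higher in CD13-/ROR2- and the target gene SMAD6 higher in CD13+/ROR2+ (15.9 against 10.6 FPKM), neither of them called, so ligand and target genes did not each keep to 1 fraction.

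SMAD6 and SMAD7 encode inhibitory SMADs that are induced as feedback. SMAD6, which acts mainly on BMP signalling, stood at 1.19 FPKM in hESC, 15.9 and 10.6 on day 3, 16.0 and 17.4 on day 7, and 18.7 and 41.1 on day 14. SMAD7, which acts on both branches, was at 6.12 FPKM in hESC, 6.36 and 6.56 on day 3, 3.75 and 5.89 on day 7, and 8.97 and 16.6 on day 14. Neither was higher in day 3 CD13-/ROR2- than in CD13+/ROR2+ by more than 1.03-fold.

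The promoters of the 4 ID genes are shown because all of them had their higher day 3 level in CD13-/ROR2-, with ID1 and ID2 called. The 300-base windows, from 250 bases before to 50 after the start, are RefSeq's on GRCh38.p14, which is not the build of the deposited values. Both strands were searched for GGCGCC and CAGACA and for the 4-base SMAD box GTCT (AGAC on the other strand), whose matches are in capitals.
ID1, chr20:31605039-31605338, plus strand: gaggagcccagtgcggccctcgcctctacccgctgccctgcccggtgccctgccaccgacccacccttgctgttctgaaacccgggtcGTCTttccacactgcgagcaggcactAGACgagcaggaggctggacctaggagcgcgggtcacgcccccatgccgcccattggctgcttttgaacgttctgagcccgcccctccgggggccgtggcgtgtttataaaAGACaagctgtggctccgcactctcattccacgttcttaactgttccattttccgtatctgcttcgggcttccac
ID2, chr2:8681806-8682105, plus strand: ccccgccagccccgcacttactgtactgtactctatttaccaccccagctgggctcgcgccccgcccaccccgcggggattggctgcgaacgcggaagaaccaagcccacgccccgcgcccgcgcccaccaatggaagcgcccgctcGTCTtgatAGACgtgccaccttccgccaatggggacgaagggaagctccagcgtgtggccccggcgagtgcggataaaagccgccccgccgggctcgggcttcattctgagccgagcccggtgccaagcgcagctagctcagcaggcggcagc
ID3, chr1:23559452-23559751, minus strand: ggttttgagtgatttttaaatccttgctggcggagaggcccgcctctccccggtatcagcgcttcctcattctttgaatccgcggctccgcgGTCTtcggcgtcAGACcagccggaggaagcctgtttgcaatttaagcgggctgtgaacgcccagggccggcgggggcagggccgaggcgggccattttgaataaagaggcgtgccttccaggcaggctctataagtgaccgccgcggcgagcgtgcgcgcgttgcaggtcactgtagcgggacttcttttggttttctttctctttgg
ID4, chr6:19837120-19837419, plus strand: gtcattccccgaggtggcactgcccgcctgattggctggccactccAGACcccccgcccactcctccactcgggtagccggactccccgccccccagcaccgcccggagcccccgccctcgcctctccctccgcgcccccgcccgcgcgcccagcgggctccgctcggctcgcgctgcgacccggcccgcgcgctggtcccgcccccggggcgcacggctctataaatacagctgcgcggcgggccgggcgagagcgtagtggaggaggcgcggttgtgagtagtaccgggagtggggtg
The SMAD box letters occur 3 times in ID1, 2 in ID2, 2 in ID3 and 1 in ID4. They are found in 84.0% of all 35116 promoter windows of this length. Neither GGCGCC, held by 19.2% of windows, nor CAGACA, held by 16.9%, occurs in the 4 sequences. Sequence outside these windows was not searched, so sites farther from the start could not be seen.

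The sort on day 3 compares cells with and without both surface proteins. In CD13+/ROR2+ the ligand gene BMP2 and the modulators BMPER and LEFTY1 were called higher, by 23.7-fold, 15.8-fold and 7.40-fold. ID1, GDF3, ID2 and BMPR1A were called lower, by 11.0-fold, 8.94-fold, 5.25-fold and 4.87-fold. That made 3 members higher and 4 lower of 43, of which 24 reached 5 FPKM in either library. Over all genes 0.933% were higher and 0.641% lower, and among genes that reached 5 FPKM 3.69% and 2.54%. The members' median log2 ratio was 0.03, against 0.00 over all genes, so the list as a whole did not lean to either fraction.

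**Figure D4:**
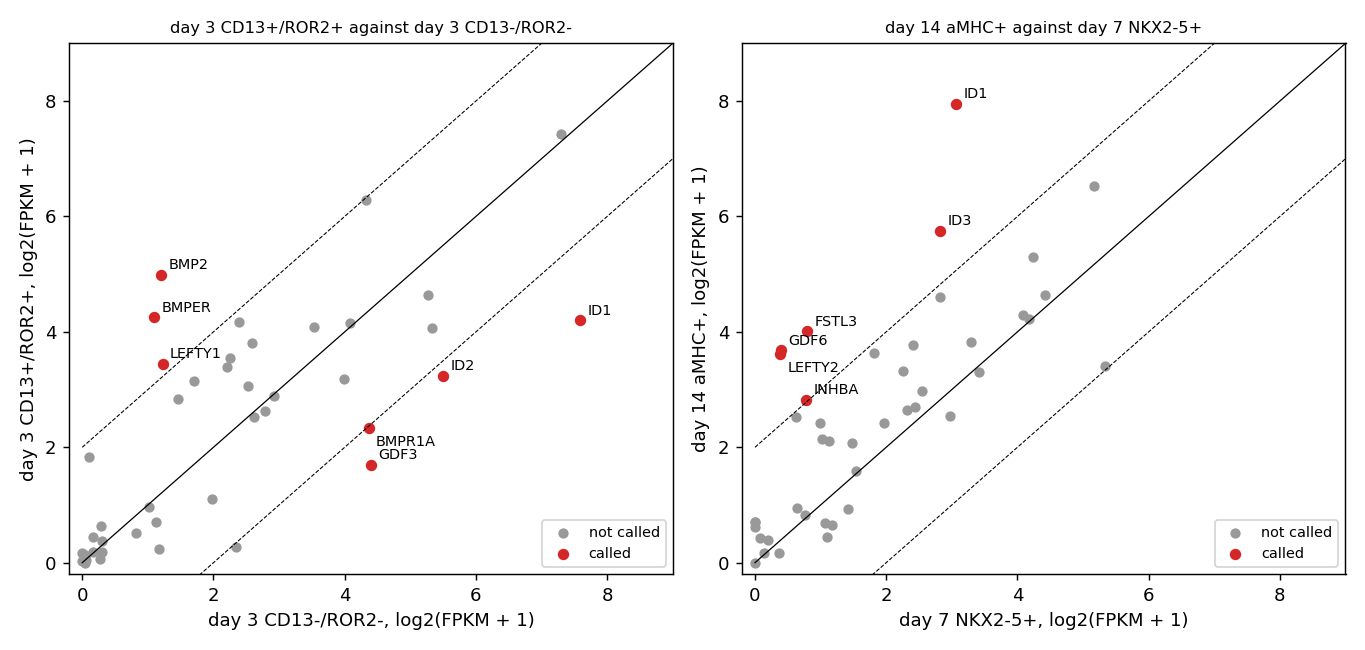
Each point is 1 of the 43 genes, with log2(FPKM + 1) in one library against another, for day 3 CD13+/ROR2+ against CD13-/ROR2- (left) and day 14 aMHC+ against day 7 NKX2-5+ (right). The solid line marks equal values, dashed lines a log2 ratio of 2, and red points the called genes, which lie on both sides of the line on the left (3 above, 4 below) and all above it on the right (6).

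Both day 3 libraries were also compared with hESC, which they share as the reference, so the results are not independent. In CD13+/ROR2+ the called genes were BMP2 (290-fold higher), BMP4 (66.0-fold), BMPER (36.3-fold), TGFB1 (23.1-fold), FST (13.6-fold) and SMAD6 (13.4-fold), and INHBE was 124-fold lower. These are 6 higher and 1 lower of 43, with 25 at 5 FPKM or more in either. The BMP2 fold rests on 0.106 FPKM in hESC and the INHBE fold on 0.183 FPKM in CD13+/ROR2+. Their log2 ratios were 4.85 and -4.33. The share over all genes was 1.13% higher and 0.641% lower, and among genes that reached 5 FPKM it was 4.5% and 2.54%. The median ratio was 0.13 against 0.00. In CD13-/ROR2- the called genes were BMP4 (16.2-fold higher), ID2 (14.4-fold), ID1 (9.29-fold), SMAD6 (8.92-fold) and BAMBI (4.93-fold), with LEFTY1 29.2-fold and INHBE 18.1-fold lower. These are 5 higher and 2 lower of 43, with 17 at 5 FPKM or more. Background shares were 0.357% higher and 0.288% lower over all genes, and 1.45% and 1.17% among those that reached 5 FPKM. The median ratio was 0.17 against 0.00. BMP4, SMAD6 and INHBE were called the same way in both fractions.

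From day 3 CD13+/ROR2+ to day 7 NKX2-5+ NODAL, TDGF1 and both LEFTY genes were called lower and BMP5, BMP7 and TGFB2 higher. TDGF1 was 137-fold lower, LEFTY2 55.1-fold, NODAL 13.1-fold, BMP4 12.7-fold and FST 12.6-fold, and LEFTY1 was listed at 0 on day 7. TGFB2 was 665-fold higher, a value that rests on 0.0268 FPKM on day 3, BMP5 15.5-fold and BMP7 7.59-fold. Of 43 members, 3 were higher and 6 lower, and 25 reached 5 FPKM. Over all genes 1.06% were higher and 2.2% lower, and among genes that reached 5 FPKM 4.38% and 9.09%. The median ratio was -0.19 against -0.05 over all genes, and -0.06 after median-ratio scaling. Scaling left the counts of 3 and 6 in place, while over all genes it turned 247 higher and 512 lower into 404 and 282. Lower values on day 7 were seen for 25 of 43 members (23 after scaling) and for 79.6% of all genes that reached 5 FPKM.

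The day 7 sort asks how fractions with and without NKX2-5 differ. BMP7 was 8.09-fold higher in NKX2-5+. GDF6 was 25.8-fold lower there, LEFTY2 17.2-fold and FSTL3 8.58-fold, the last with a log2 ratio of -2.08 that became -1.92 and was no longer called after median-ratio scaling. The GDF6 and LEFTY2 folds rest on 0.318 and 0.307 FPKM in NKX2-5+, the library with the lowest estimated depth. The count was 1 higher and 3 lower of 43 (2 lower after scaling), with 20 at 5 FPKM or more. Shares over all genes were 0.434% higher and 1.16% lower, and 2.03% and 5.42% among those that reached 5 FPKM. Over all genes 101 were higher and 270 lower, and 166 and 208 after scaling. The median ratio was -0.27 against -0.07 over all genes, and -0.08 after scaling. Lower values in NKX2-5+ were seen for 30 of 43 members (22 after scaling) and for 79.0% of all genes that reached 5 FPKM. Markers of other cell types were higher in NKX2-5- as well. Summed FPKM was 689 against 43.7 for 6 fibroblast and matrix markers, 351 against 62.7 for 6 hepatic and visceral endoderm markers, 36.0 against 9.17 for 5 endothelial markers and 35.4 against 1.73 for 5 epicardial markers. None of these 22 was listed at 0 in NKX2-5- and 1 was in NKX2-5+. Their part in the differences of GDF6, LEFTY2 and FSTL3 was not tested.

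The day 14 sort, by alpha-MHC within NKX2-5+ cells, called 0 members higher and 0 lower of 43, with 24 at 5 FPKM or more. Over all genes 0.159% were higher and 0.086% lower, and 0.648% and 0.35% among those that reached 5 FPKM, so few calls of any kind were made. On the log2(FPKM + 1) scale the largest ratio was that of GDF6, 2.27-fold lower in aMHC+ (log2 ratio -1.12), followed by SMAD6, 2.20-fold lower. BMP10 was 1.99-fold and BMP7 1.78-fold higher in aMHC+. In all, 32 of 43 members had the lower value in aMHC+ (29 after median-ratio scaling), as did 78.4% of all genes that reached 5 FPKM, and the median ratio was -0.24, or -0.10 after scaling. The fibroblast and matrix markers summed to 347 against 719 FPKM and the cardiomyocyte markers to 2299 against 799, with none of the 12 at 0 in either library. Among the fibroblast and matrix markers DCN went the other way, at 1.97 against 1.44 FPKM. The part of these markers in the lower GDF6 and SMAD6 values was not tested.

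From day 7 NKX2-5+ to day 14 aMHC+ the target genes ID1 and ID3 rose past the rule, while ID2 (1.16-fold, log2 ratio 0.21, and -0.39 after median-ratio scaling) and ID4 (log2 ratio 0.99) were not called. ID1 was 33.4-fold and ID3 8.71-fold higher on day 14, GDF6 37.4-fold, LEFTY2 36.5-fold, FSTL3 20.5-fold and INHBA 8.44-fold. These 6 of 43 were higher and 0 lower, with 22 at 5 FPKM or more. Over all genes 1.75% were higher and 0.189% lower, and among genes that reached 5 FPKM 7.68% and 0.829%. After median-ratio scaling the counts were 5 higher and 1 lower, because INHBA fell short (1.73) and BMP5, 4.10-fold lower on day 14, moved from -1.93 to -2.53. Over all genes 408 were higher and 44 lower, and 209 and 111 after scaling. The median ratio was 0.46 against 0.04 over all genes, and 0.11 after scaling. Of the members 34 had the higher value in aMHC+ and 8 the lower (19 lower after scaling). Among all genes that reached 5 FPKM 16.0% were lower there, so most genes rose as well. The day 7 NKX2-5+ library is the denominator here and the numerator on day 7, so a low value in it enters both results, as for GDF6, LEFTY2 and FSTL3. The fibroblast and matrix markers stood at 347 on day 14 against 43.7 FPKM, and their part in these differences was not tested.

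Beside the members, 66 further genes of the same pathways were read from a list of ligands, modulators, receptors, transducers and targets. In the day 3 pair 1 of them was higher and 1 lower, in CD13+/ROR2+ over hESC 4 and 0, and in CD13-/ROR2- over hESC 2 and 0. From day 3 to day 7 NKX2-5+ it was 2 and 4, in the day 7 pair 0 and 2, in the day 14 pair 0 and 0, and from day 7 to day 14 aMHC+ 3 and 1. Their median ratios lay between -0.36 (day 7 pair) and 0.13. CER1, a secreted antagonist of NODAL, BMP and WNT, stood at 1736 FPKM in day 3 CD13+/ROR2+, 11.7 in CD13-/ROR2- and between 0.549 and 3.77 elsewhere. FOXH1, the DNA-binding partner of SMAD2 at NODAL targets, followed TDGF1, with 8.49 FPKM in hESC, 10.8 and 16.7 on day 3 and 0.349 to 1.82 later. It was called lower on day 7 NKX2-5+ against day 3 (log2 ratio -2.06), but not after median-ratio scaling (-1.56). TGIF1, a SMAD2 corepressor, stood at 40.9 FPKM in hESC, 40.8 and 20.1 on day 3 and 3.62 to 13.7 later.

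The receptor-regulated SMAD genes and SMAD4 were called in none of the 7 comparisons. SMAD2 ranged from 2.95 to 5.54 FPKM, SMAD4, the common partner, from 3.34 to 5.67, SMAD1 from 2.16 to 7.73 and SMAD5 from 2.39 to 6.52. SMAD3 stood highest on day 14, at 13.0 and 22.01 FPKM, against 3.73 to 8.98 elsewhere, and SMAD9 ranged from 0.188 in hESC to 4.79 in day 14 aMHC-. Of the further targets, CTGF, a matricellular protein gene and TGF-beta target, was at 3.40 FPKM in hESC, 14.4 in day 3 CD13-/ROR2- and 2.49 in CD13+/ROR2+, 14.5 and 125 on day 7, and 106 and 126 on day 14. TGFBI, named for its induction by TGF-beta, was at most 0.600 FPKM through day 3 and in day 7 NKX2-5+, 9.96 in NKX2-5-, and 9.03 and 14.9 on day 14. LTBP1, which holds latent TGF-beta in the matrix, stood at 5.34 to 10.2 FPKM through day 3 and at 26.2 to 32.7 later.

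The homeobox genes MSX1 and MSX2, induced by BMP in the embryo, were highest on day 3. MSX2 was 0.158 FPKM in hESC, 19.4 in day 3 CD13-/ROR2- and 5.50 in CD13+/ROR2+, the last no longer called after median-ratio scaling, whereas MSX1 was 1.44 and 6.08 in the same order. CFC1 (CRYPTIC), a NODAL co-receptor related to TDGF1, was at most 0.817 FPKM through day 7 and 6.53 and 8.16 on day 14, where TDGF1 was at 0.563 and 0.505. CFC1 has a near-identical copy, CFC1B, listed at 0.424 and 1.52 FPKM on day 14, so their split is uncertain. The call of CFC1 on day 14 (log2 ratio 2.05) was lost after median-ratio scaling (1.72).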

How the data were processed

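Gene levels of 7 human embryonic stem cell and sorted cardiac differentiation samples, 1 library per group, were taken from 1 deposited table and grouped by the sample labels. The authors deposited FPKM values, made with Cufflinks on build hg19 per the submitters' processing notes; aligner, annotation and multi-mapping reads: not given in the sources used here. Cells went through the sorter 2 times per the labels' protocols, total RNA was column-purified, and libraries were made with a kit that does not mark strand, so antisense or overlapping genes cannot be told apart. Of 23368 rows, 106 were blank in all libraries and left out.

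For 7 comparisons, log2 ratios were computed with a pseudocount of 1 and called at a size of 2 where the larger level was 5 FPKM or more (pandas 2.3.3 in Python 3.11.15); the calling and the relative-depth estimate were tested on simulated data. FPKM ratios on this scale understate changes of low genes. A listed 0 can be a failed estimate, so no fold is given against 0. No test was possible. Low values carry large counting error.

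The members were given by symbol, and the gene lists, comparisons and rules were chosen with earlier results of these data known. All members are named; of 66 further pathway genes, those called in a comparison, CER1, FOXH1 and the SMAD genes are named, except for an item that is not reported here. Alternatives were pseudocounts of 0.1 and 5, no minimum, median-ratio scaling over 7780 genes, equal sums without 1711 small RNA and histone genes, and leaving out genes listed at 0. Windows of 50 bases were compared between GENCODE transcripts, which may differ from the authors' annotation. Promoters were matched by symbol for 35 of 43 members.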

Additional observations from a re-analysis of the deposited data

How the results depend on the processing

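With a pseudocount of 5, which shrinks low genes most, 17 of 40 single calls of members remained and 23 fell short. The share of all genes called at this pseudocount was not computed, so members cannot be set against other genes here. Counts of members were then 1 higher and 1 lower in the day 3 pair, 3 higher in CD13+/ROR2+ and 2 higher in CD13-/ROR2- over hESC, 0 higher and 0 lower in the day 7 pair, 3 lower from day 3 to day 7 NKX2-5+, and 2 higher (ID1 and ID3) from day 7 to day 14 aMHC+. In that last comparison 1 member, BMP5, was lower with a pseudocount of 0.1, after median-ratio scaling (1) and at equal sums without small RNA and histone genes (1), against 0 as reported. All other counts of members stayed within 1.5 times the reported one in the 6 alternatives. Median-ratio scaling left 38 of 40 single calls in place and equal sums 37, the lost ones being FSTL3 in the day 7 pair and INHBA on day 14 in both and BMPR1A in the day 3 pair in the latter. No called member changed direction. No paired analysis was possible because each group has 1 library, and leaving out a replicate was not possible for the same reason. Absolute depth is unknown, so the precision of low values, above all in day 7 NKX2-5+, cannot be stated.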

Other observations

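Some pathway genes outside the members and outside the rule for named genes are given here after their values were seen. ENG (endoglin), a TGF-beta co-receptor of endothelial cells, stood at 12.1 FPKM in day 7 NKX2-5- and at most 2.84 in the other libraries, where 0.130 and 0.328 were the day 14 values. Summed endothelial markers were 36.0 FPKM in that library and between 1.40 and 16.8 elsewhere. Of these markers KDR was not highest there, at 9.28 FPKM against 16.2 in day 3 CD13-/ROR2- and 13.3 in hESC. AMHR2, the type II receptor of anti-Muellerian hormone, was listed at 0 in hESC and stood at 3.30 and 3.28 FPKM on day 7 and 4.45 and 5.37 on day 14, whereas the hormone gene AMH was at most 0.972. HTRA1, a secreted protease that cleaves TGF-beta family proteins, stood at 1.95 to 5.42 FPKM through day 3 and 10.4 to 35.1 later. SKIL, a SMAD corepressor and feedback target, was highest in hESC at 32.4 FPKM, followed by day 3 CD13-/ROR2- with 24.1, while CD13+/ROR2+ had 9.87.

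Among the genes whose pattern over the 7 libraries was most like that of NODAL, by Pearson r of log2(FPKM + 1) over 7684 other genes that reached 5 FPKM, were KCNMB4 (r = 0.986), OTUD4 (0.981), PCOLCE2 (0.980) and KLKB1 (0.970). The points are 7 libraries that share depth and scaling, and NODAL itself never exceeded 7.32 FPKM, so these values only describe the libraries.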
